A study of Triticum aestivum with 10 samples.

Results

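The data described here compare the leaves of 2 lines of synthetic hexaploid wheat after a long cold period, by microarray. Such wheat arises from a cross of a tetraploid wheat and Aegilops tauschii, a goat grass, followed by a doubling of the chromosomes of the hybrid. One line, called necrotic here, showed cold-induced hybrid necrosis, and the other grew with a wild-type phenotype and was the reference. Seedlings of both lines spent 3 weeks at 23 °C and a further 12 weeks at 4 °C. Each line was measured on 2 arrays, so that the comparison rests on 4 of the 10 arrays in the series. The remaining 6 arrays hold leaves of the necrotic line taken after 3 weeks at 23 °C without cold, and shoots with the apical meristem of both lines after 3 weeks at 23 °C and 6 weeks at 4 °C. Uncooled leaf of the wild type was not analysed here. Each phenotype was represented by 1 line, and the labels do not give the parents of the lines or any allele that they carry. Every difference below is therefore one between 2 genotypes, and genes that act in necrosis cannot be told apart from other differences between the lines. The series description mentions independent experiments, but no label ties a replicate to plants of its own, so the p-values cover only the spread between these samples, which may be technical.

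Each array carried 37826 wheat probes. A probe was tested when it was well above background, by the scanner software's own mark, on both arrays of at least 1 of the 2 leaf groups. That kept 30044 probes. The level of a probe is the log2 of its processed signal minus that of the array's 75th percentile, and a difference is the mean level of the necrotic leaf minus that of the wild-type leaf. A probe is called when its p-value in limma, adjusted by the Benjamini-Hochberg method over all 30044 probes, is under 0.05. Bread wheat carries related copies of most genes on its 3 subgenomes, and a probe can bind transcripts of more than one copy. In leaf tissue, fewer cells of a type and less RNA per cell cannot be told apart. The probe names are those of expressed-sequence contigs and clones, and 0 of the 37826 were found in the table of reference genes. Only 6 probes carry a gene name. Lists of defence, photosynthesis, senescence and cell-division genes could therefore not be counted, and the leaf label could not be checked against leaf markers.

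Hybrid necrosis is a disorder in which the tissue of some hybrids dies although both parents are healthy. In plants it is often traced to genes of the parents that work well apart and set off an immune-like response together, with changes in defence, oxidative and senescence transcripts. Some forms appear only within a range of temperatures. Cold itself changes the leaf transcriptome of wheat: cold-responsive (Cor) and late-embryogenesis-abundant proteins accumulate and protect membranes and chloroplasts, under the control of DREB/CBF transcription factors.

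The 4 leaf arrays lay on a single slide, the wild-type arrays at positions 1 and 2 and the necrotic arrays at positions 3 and 4, so that line and position on the slide cannot be told apart. Between 29243 and 30238 probes were well above background on each of them, and no spot was saturated. The median absolute difference between replicates was 0.0864 (log2) for the wild-type leaf and 0.0632 for the necrotic one. Replicates were at least 2-fold apart at 590 wild-type probes (1.97%) and at 176 necrotic ones (0.586%), so the wild-type pair was the noisier one. The arrays also carry 10 control sequences with names starting in E1A_r60, each on 32 spots, which in Agilent's one-colour design bind RNA added at labelling and not plant RNA. 7 of them were well above background on every spot, with wild-type levels from −3.04 to 6.15. Their medians differed between the lines by −0.045 to 0.078, with a median of 0.0097, and no such sequence varied by more than 0.134 over the 4 arrays. The scale of the arrays, as these spots show it, was thus far closer between the lines than a 2-fold difference.

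**Figure D1:**
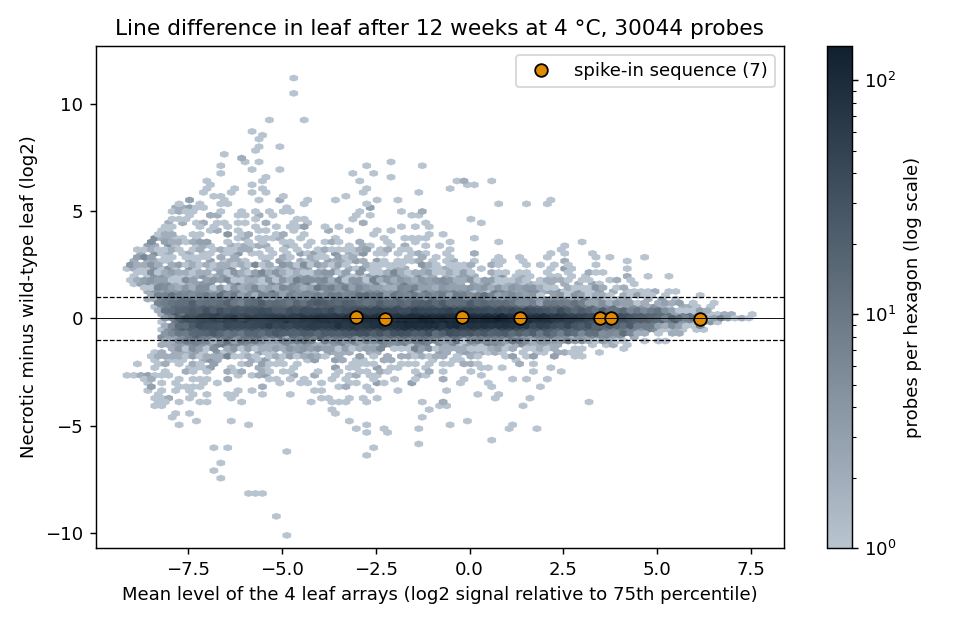
Necrotic minus wild-type leaf (log2) against the mean level of the 4 leaf arrays (log2 signal relative to the 75th percentile) for 30044 probes, shown as hexagons shaded by the number of probes on a log scale. Dashed lines mark 2-fold differences, and the 7 orange points are the control sequences, which lie between −0.045 and 0.078.

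Many small differences and a smaller set of large ones separated the lines, and the large ones were mostly higher in the necrotic leaf. At any size 7980 probes were called higher in the necrotic leaf (26.6% of those tested) and 9802 lower (32.6%), together 59.2%. Most were small: 73.2% of the higher and 89.8% of the lower calls were under 2-fold, and the median call was 1.47-fold higher or 1.35-fold lower. At 2-fold or more the balance turned, with 2136 probes higher (7.11%) and 998 lower (3.32%), together 10.4%. The share of higher probes among the calls was 44.9% at any size, 55.2% from 1.5-fold, 68.2% from 2-fold, 77.1% from 4-fold and 82.3% from 16-fold. For 1799 of the 2136 higher probes and 767 of the 998 lower ones, each of the 4 pairings of a necrotic with a wild-type array showed a difference of 2-fold or more.

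Among the largest differences, 41 probes had a fitted rise of 64-fold or more and 10 a fitted fall of that size. These fitted values include probes that were undetected in one line. Among probes detected on each of the 4 arrays, 1613 rose and 832 fell by 2-fold or more. At 16-fold or more these counts were 71 and 18, and at 64-fold or more 15 and 1. With undetected probes set to the bound that the detection limit allows, the counts were 1989 and 971 at 2-fold. They were 126 and 31 at 16-fold, and 27 and 7 at 64-fold. The excess of higher probes was present in each of these counts. Under normexp background correction 1214 probes were higher and 477 lower by 2-fold or more.

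**Figure D2:**
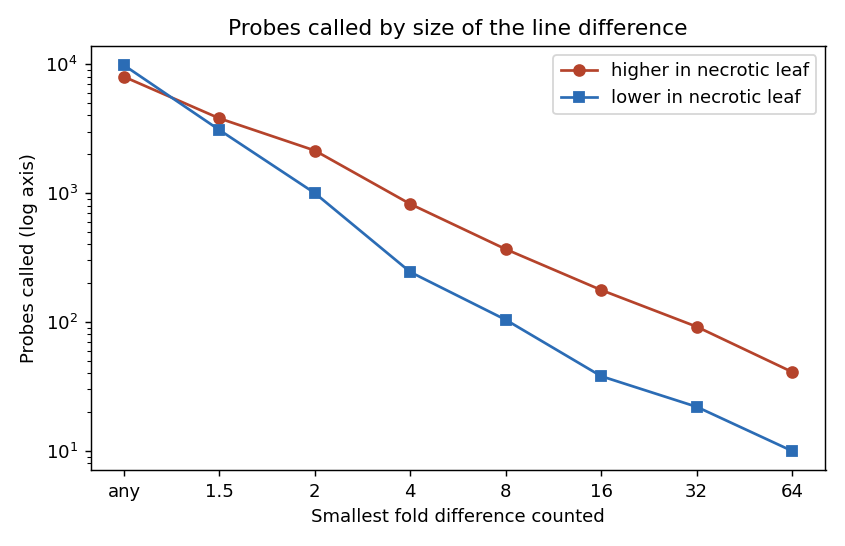
Number of probes called (log axis) at or above each fold difference, for probes higher (red circles) and lower (blue squares) in the necrotic leaf. The lines cross between all calls, where 9802 lower exceed 7980 higher, and 1.5-fold, where 3794 higher exceed 3083 lower.

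The excess of large rises was found over the whole range of signal, and it was widest among dim probes in absolute numbers. When the 30044 probes were divided into 10 equal classes by their mean level, 16.7% of the dimmest class were called at least 2-fold higher and 7.32% lower. In class 6, counted from the dimmest, these shares were 5.43% and 3.06%, and in the brightest class 3.56% and 1.26%. Higher outnumbered lower probes in all 10 classes, by 1.32 to 2.82 times. The replicate spread moved with level as well: the median absolute replicate difference was 0.246 in the dimmest class and 0.0522 in the brightest. Its part in the larger share of 2-fold differences among dim probes was not tested.

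The 2 largest rises among probes measured on all 4 arrays were those of wheat0130Contig1162 and MUGEST2003_23lib_Contig3816_293, expressed-sequence contigs to which the files give no gene. The level of wheat0130Contig1162 was −5.56 and −5.89 on the wild-type arrays and 1.65 and 1.63 on the necrotic arrays. It was thus well below the 75th percentile in one line, though detected, and above it in the other, with no overlap. The difference was 7.36 (SE 0.50), or 165-fold (limma, adjusted p = 2.17e-05), and 52.5-fold with normexp background correction. Outside the cold leaf it was low throughout: neither the uncooled necrotic leaf nor the wild-type shoot had it well above background, and it stood at −7.22 and −6.93 in the necrotic shoot. MUGEST2003_23lib_Contig3816_293 read −6.70 and −6.13 on the wild-type arrays and 0.79 and 0.75 on the necrotic ones, 145-fold higher (difference 7.18, SE 0.17, adjusted p = 1.59e-07). With normexp it was 37.9-fold higher. It was undetected in the necrotic leaf at 23 °C. In shoots it was detected in both lines, at −1.20 and −1.08 in the wild type and 2.10 and 2.05 in the necrotic line. It was 9.27-fold higher in the latter (limma, adjusted p in the shoot comparison = 5.18e-06).

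The 2 largest falls by the same criteria were those of MUGEST2003_23lib_Contig14513_354 and MUGEST2003_23lib_Contig20768_385, which also have no gene name in the files. MUGEST2003_23lib_Contig14513_354 read 0.48 and 0.51 on the wild-type arrays and −5.94 and −5.81 on the necrotic ones, 82.4-fold lower (difference −6.36, SE 0.076, adjusted p = 1.56e-08), or 23.4-fold with normexp. In the necrotic leaf at 23 °C it stood at 0.96 and 1.09, so that the cold necrotic leaf was the one leaf group in which it was low. It was low in shoots of both lines, at −6.58 on both wild-type arrays and at −7.30 and −7.12 in the necrotic line. MUGEST2003_23lib_Contig20768_385 read 0.45 and 0.53 on the wild-type arrays and −5.55 and −5.40 on the necrotic ones, 62.3-fold lower (difference −5.96, SE 0.13, adjusted p = 1.05e-07), or 22.4-fold with normexp. Its level was −0.71 and −0.31 in the necrotic leaf at 23 °C. In shoots it was lower in the necrotic line too, at −3.61 and −3.52 against −2.76 and −2.70 in the wild type, a 1.78-fold difference (limma, adjusted p = 0.00103). The uncooled leaves had their own slide, so temperature, plant age and slide cannot be told apart there. The 2 lines did not overlap at any of these 4 probes, as the rule that chose them requires.

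**Figure D3:**
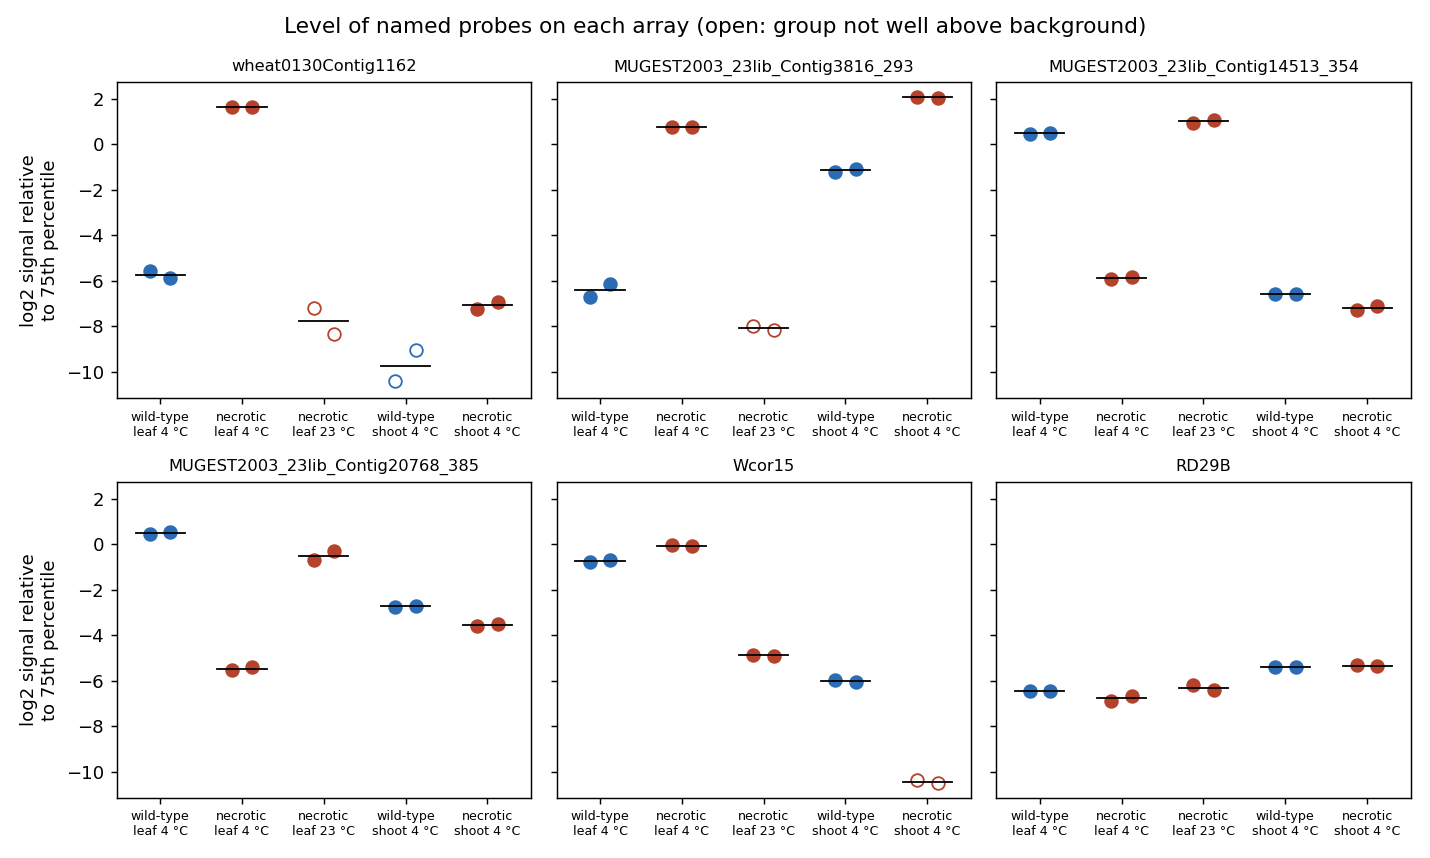
Level (log2 signal relative to the array's 75th percentile) of 6 probes on each of the 10 arrays, with necrotic groups in red, wild-type groups in blue and group means as black lines; open circles mark groups that were not well above background on either array. The 2 upper left panels are the largest measured rises in the cold necrotic leaf, the next 2 panels the largest falls, and Wcor15 and RD29B are the 2 detected probes with a gene name.

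Of the 6 probes with a gene name, all of them genes known from cold or drought responses, 2 were detected in the cold leaf. Wcor15 encodes a wheat cold-responsive protein that is imported into the chloroplast. Its level was −0.78 and −0.71 in the wild-type leaf and −0.057 and −0.062 in the necrotic leaf, so the necrotic arrays lay above both wild-type arrays. The difference of 0.68 (SE 0.061), or 1.61-fold, was called (limma, adjusted p = 8.50e-05), as were 59.2% of all probes tested. It was small against the distance of either cold leaf from the uncooled necrotic leaf, where Wcor15 stood at −4.88 and −4.91. In Arabidopsis RD29B responds to drought and abscisic acid. Its level here was −6.47 and −6.45 in the wild-type leaf and −6.89 and −6.67 in the necrotic leaf. That difference of −0.32 (SE 0.091, adjusted p = 0.0201) lost its call in 7 of 14 alternatives, among them those without replicate 1 of the wild type (0.0585), without replicate 2 of the wild type (0.0665) and without replicate 1 of the necrotic line (0.107). With normexp the difference was −0.0061 (adjusted p = 0.947), and the adjusted p ranged from 0.00442 to 0.947 over all 14. The other probes, cor47 and RD29A (in Arabidopsis, genes of hydrophilic proteins induced by cold and drought) and DREB2A and DREB2B (in Arabidopsis, transcription factors of the dehydration response), were not well above background on any array. Their signals on the 4 leaf arrays were −9.86 to −10.38, where the negative control spots also lay (−9.98 to −10.35), and gave no measure of their transcripts.

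More probes were detected in the necrotic leaf alone than in the wild-type leaf alone. Both necrotic leaf arrays and neither wild-type array detected 510 probes, and 168 had the opposite pattern. Of these, 457 and 146 were also called, as were 59.2% of all probes tested. Each passed the filter only through the line that detected it, so the direction of these calls largely follows from that choice. A fold for such a probe has only a lower bound, the mean of the bright group over the lowest signal well above background on each array of the dim group, or over the probe's own signal where that is higher. By this bound the necrotic leaf exceeded the wild type at least 2-fold at 247 probes, 4-fold at 132 and 16-fold at 44. In the other direction the counts were 94, 37 and 12. The largest bounds were 489-fold and 315-fold. A further 480 probes were detected on both necrotic arrays and 1 wild-type array, and 230 on both wild-type arrays and 1 necrotic array. The lowest level well above background was −8.19 to −7.89 on the leaf arrays, and the highest level not so marked was −7.41 to −6.93. The −7.89 and the −6.93 both belonged to replicate 1 of the wild type. That array also had the fewest probes well above background, 29243. Its part in the excess of 510 over 168 was not tested directly. The called counts, 457 and 146, depended on single arrays, and both were larger with any 1 cold leaf array left out. The necrotic count stayed the larger one in each case. The excess was narrower without replicate 1 of either line and wider without replicate 2 of either line. A line with 1 array left is judged on that array alone, so these counts cannot isolate the part of any array.

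Most probes detected in the leaf of one line alone were detected in the shoots of both lines, at shares below that of all tested probes. Of the 457 probes detected in the necrotic leaf and not in the wild-type leaf, 332 (72.6%) were well above background on all 4 shoot arrays, against 96.9% of all probes tested in leaf, and 54 (11.8%) were detected in the necrotic shoot and on no wild-type shoot array. Over all probes tested in leaf, 0.839% had that shoot pattern. Another 41 (8.97%) were detected on no shoot array, against 0.979% overall. Of the 146 probes detected in the wild-type leaf alone, 91 (62.3%) were detected on all 4 shoot arrays and 13 (8.90%) in the wild-type shoot and on no necrotic shoot array, against 0.233% over all probes tested. In the necrotic leaf at 23 °C, 152 of the 457 (33.3%) and 48 of the 146 (32.9%) were detected on both arrays, against 93.1% of all probes tested. The 457 and the 146 were undetected in one leaf line by choice, whereas 28656 of all tested probes were detected on all 4 leaf arrays. The part of signal level in these shares was not tested. The shoot arrays are separate samples and share none with the leaf comparison. On their slide too the wild-type arrays lay at positions 1 and 2 and the necrotic arrays at positions 3 and 4. Line and position cannot be told apart in shoot either.

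Many clone names occur on a pair of probes, and the line difference could be set side by side at both. The names of 2481 clones occur once with and once without a leading r, and both probes were tested for 1568 of them. The files do not explain the r, and whether both probes of a name bind the same transcript was not tested. The line difference had the same sign at both probes in 1230 clones (78.4%), and the absolute difference between the pair had a median of 0.183. Across clones, which share arrays and are not independent replicates, the differences correlated at r = 0.68 (Spearman's rho 0.70, n = 1568). Where both probes were called at 2-fold or more, 81 of 82 clones had the same sign. Where either was, 186 of 222 (83.8%) did, against 78.4% of all 1568.

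Where the r probe had risen by 2-fold or more (122 clones), the partner was also higher in 104 and at least 2-fold higher in 58. The median difference was 1.77 at the r probe and 0.97 at its partner. Starting from the partner, 77 clones were at least 2-fold higher. The r probe was higher in 72 of them and at least 2-fold higher in 58, with medians of 1.56 and 1.70. Of 56 clones at least 2-fold lower at the r probe, 46 were lower at the partner, 23 of them by 2-fold or more. Of 49 lower at the partner, 45 were lower at the r probe, 23 of them by 2-fold or more. The sign of a large difference was thus usually the same at its partner, but it was also the same in 78.4% of all 1568 clones. A 2-fold size was shared less often. The starting points were not tested against each other. In 1334 of the 1568 clones (85.1%) the r probe was the brighter one. The level of the r probe minus that of its partner had a median of 2.28 over the 1568. The part of signal level in these counts was not tested.

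**Figure D4:**
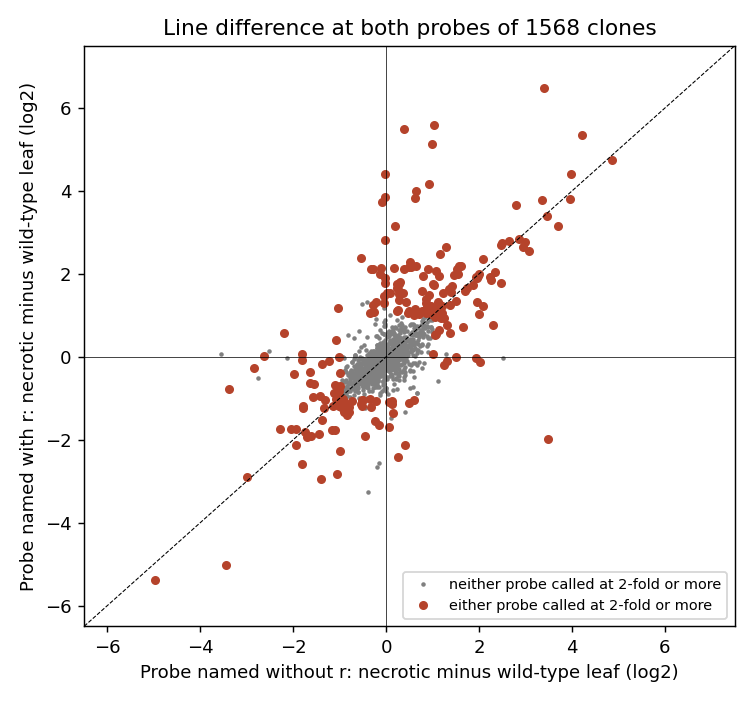
Necrotic minus wild-type leaf (log2) at the probe named without r (x axis) and with r (y axis) for 1568 clones. Red points are the 222 clones in which either probe was called at 2-fold or more, 186 of which have the same sign at both probes, and the dashed line marks equal values.

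The array also has pairs of another kind. For 833 contigs or clones the array has one probe with p and one with m in its name, letters which the files do not explain. Of the p probes 488 (58.6%) were tested and of the m probes 316 (37.9%), and for 170 targets both were. Only 94 of these 170 pairs (55.3%) had the same sign, and the differences correlated at r = 0.32 (Spearman's rho 0.30, n = 170). The p probes were at least 2-fold higher in 31 cases and lower in 25, and the m probes in 16 and 15. Of 28 pairs with either probe called at 2-fold or more, 20 had the same sign. In 98 wheat0130 contigs with a second probe, marked by a suffix, both probes were tested in 43, and 22 of these had the same sign (r = 0.57, Spearman's rho 0.37).

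**Figure D5:**
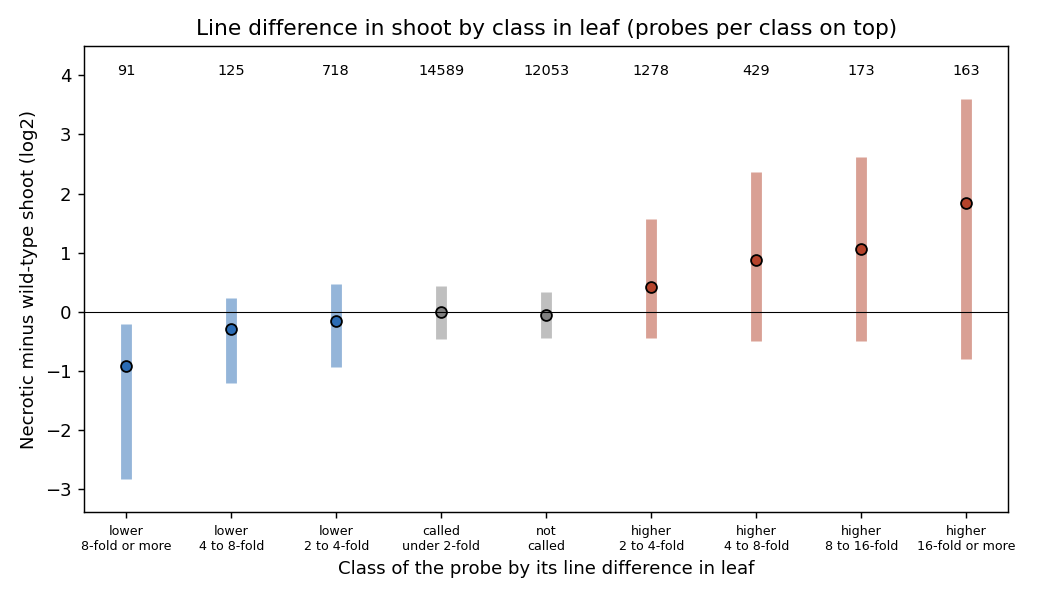
Line difference in shoot (log2, median as a point and the range between the quartiles as a bar) for classes of probes by their line difference in leaf, lower classes in blue and higher ones in red; the number of probes tested in both tissues stands above each. The median runs from −0.93 for probes at least 8-fold lower in the necrotic leaf to 1.83 for those at least 16-fold higher, and the bars widen toward both ends.

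The larger a difference between the lines was in leaf, the more often the same probe also differed in shoots, which were sampled after 6 weeks at 4 °C. Of all probes tested in both tissues, the necrotic shoot was called higher by 2-fold or more at 11.2% and lower at 8.73%, against 11.3% and 10.4% of all probes tested in shoot. Among probes 2 to 4-fold higher in the necrotic leaf 34.5% were higher in shoot, and among those 16-fold or more higher 56.4% were (92 of 163). Their median shoot differences were 0.42 and 1.83. For probes higher in leaf the opposite direction in shoot also took a larger share with size: 11.3% of the probes 2 to 4-fold higher in leaf and 22.7% of those 16-fold or more higher had fallen by 2-fold or more in shoot. For probes lower in the necrotic leaf the same direction was found in shoot for 23.8% at 2 to 4-fold (171 of 718) and 46.2% at 8-fold or more (42 of 91), with median shoot differences of −0.16 and −0.93. There the opposite direction had no such rise, with shares of 14.5% at 2 to 4-fold and 4.40% at 8-fold or more. Of the probes not called in leaf, 7.14% were higher by 2-fold or more in shoot and 6.78% lower. Still, 45.6% of the higher and 59.3% of the lower 2-fold leaf probes were not changed by 2-fold in either direction in shoot. The 820 probes higher in both tissues were 38.4% of the leaf list and 22.2% of the shoot list, and the 252 lower in both were 25.3% and 7.46%. These are counts over probes, with no test of one class against another. The leaf and shoot calls of a probe share an estimate of its spread, from all 10 arrays. Tissue, weeks of cold and slide differ together between the leaf and shoot arrays. The lines held the same slide positions in both tissues, so line and position cannot be told apart in this overlap.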

How the data were processed

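Total RNA was labelled with Cy3 for one-colour Agilent arrays, with 1 array per sample, per the labels' protocols. The files deposited by the authors give a linear intensity for each spot. The file headers name Agilent Feature Extraction 10.5.1.1, whereas the submitters' processing notes name version 9.5. Per the file headers, background subtraction and detrending were done within arrays, with no scaling between them. The deposited series matrix equals the processed intensity at all 39243 features. The 10 arrays lie on 3 slides, and each line comparison lies within a single slide.

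Control spots were left out, outlier spots (13 to 40 per cold leaf array) were treated as missing, and levels were scaled to the 75th percentile. One mean for each of 5 groups was fitted over all 10 arrays in limma 3.58.1 (lmFit, eBayes; R 4.3.3), which gave 5 residual and 1.88 prior degrees of freedom. Tests are two-sided. 2 probes that passed the filter had no fit because of outlier spots. The number of arrays, 2 per group, limits precision. On simulated data of 30046 probes made for the leaf comparison, 42 of 50 probes set 1 higher on the log2 scale and 44 of 50 set 1 lower were recovered, and 49 of 50 at 2 in either direction. All other simulated probes were set equal in the 2 lines, whereas 59.2% of tested probes were called in the data. These shares therefore need not hold for the data.

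The text names every probe with a gene name and, since nothing annotates the others, the 2 largest rises and falls among called probes changed at least 2-fold, well above background on all 4 arrays, without overlap and not named by a sequence accession. These members, lists and rules were chosen with earlier results of these data known. Normexp was run on the median spot signal, as the files used here hold no mean signal. Replicate numbers did not pair the samples: the deviations of same-numbered arrays correlated at r = 0.00604 between the lines, below the minimum of 0.1. Wcor15 and wheat0130Contig1162 are given in shoot as bounds where 1 line was undetected.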

Additional observations from a re-analysis of the deposited data

Results flagged for a closer look

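The leaf difference minus the shoot difference passed the limma test for each of the 6 detected probes that the text names. The share of all tested probes that passed the same test is not given here. The 6 passes therefore do not set these probes apart from the rest. For the 4 probes named by size the choice fixed a large leaf difference, which is part of the contrast tested, so their values are a description. Tissue, weeks of cold and slide change together between these arrays and cannot be told apart. For Wcor15 the leaf difference minus the shoot difference was fitted at 5.11 (adjusted p = 4.84e-08). Wcor15 was undetected in the necrotic shoot and at −6.01 in the wild-type shoot, so it was at least 5.62-fold lower there and the value is at least 3.17. For RD29B it was −0.38 (adjusted p = 0.0324), from −0.32 in leaf and 0.065 in shoot. For wheat0130Contig1162 it was fitted at 4.71 (adjusted p = 0.000771), and since the wild-type shoot was undetected, the shoot difference is at least 2.54-fold and the value at most 6.02, a bound that does not exclude 0. For MUGEST2003_23lib_Contig3816_293 it was 3.97 (adjusted p = 8.10e-06), with the necrotic line higher in both tissues. For MUGEST2003_23lib_Contig14513_354 and MUGEST2003_23lib_Contig20768_385 it was −5.73 (adjusted p = 6.81e-08) and −5.13 (adjusted p = 6.56e-07), with the necrotic line lower in both tissues. Their shoot differences were −0.63 and −0.83.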

How the results depend on the processing

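Of 120 recomputed counts and shares, 112 stayed within 1.5 times the reported value (or, for the share of clones, within its 95% exact binomial interval). Normexp gave 1214 probes at least 2-fold higher and 477 lower, 69 detected in the wild-type leaf alone, and 453 and 88 of the 2-fold leaf probes also higher and lower in shoot. Without the filter on dim probes 70.9% of clones had the same sign at both probes. Leaving out single arrays, the count detected in the wild-type leaf alone ran from 166 to 269. With the replicate block 7988 probes were called higher and 9871 lower, and none of the counts moved by over 1.5 times. The counts of all calls ran from 6095 to 8363 higher and 7561 to 10987 lower over the alternatives. With only the 4 leaf arrays in the fit 50.2% of probes were called, and with scaling to the E1A_r60 control sequences 45.5%, against 59.2% as reported. The share of higher probes among 2-fold calls ran from 64.8% with median scaling to 71.8% with normexp. Wcor15 and the 4 probes named by size kept their direction and call in all 14 alternatives, at 1.56 to 1.65-fold for Wcor15. The folds of those 4 were lowest with normexp, at 52.5 and 37.9 for the rises and 23.4 and 22.4 for the falls. RD29B lost its call in 7 and was at −0.0061 with normexp. The counts of probes detected in 1 line cannot be made when all 4 arrays must be well above background, and the series matrix gave no further setting, being equal to the scanner values. The cause of these shifts was not tested. Dim probes have little signal over background, which limits the precision of their folds.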

Other observations

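The probe names fall into series that the files do not explain, and the series differed in how many of their tested probes were at least 2-fold changed in the cold necrotic leaf. Over all 30044 tested probes 7.11% were higher and 3.32% lower. Of 127 tested probes with an ncbi_gi name, 15.0% were higher and 4.72% lower. Of 904 whsh_allContig probes 10.7% were higher and 3.54% lower, and of 1100 whfl_allContig probes 4.18% were higher and 2.73% lower. The 1164 probes named MUG and a plate position had 3.44% higher and 0.945% lower. Among single clones, names with a leading r had 8.35% higher of 3547, and those without it 4.52% higher of 5419. Median levels differ between the series (−3.86 for clones without r, −1.81 for those with r, 1.75 for whsh_allContig), and the part of signal level in these shares was not tested.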
